A study of Homo sapiens with 12 samples.

Results

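The miR-320 family is a small set of human microRNAs with near-identical mature sequences. Its 4 members on the array, hsa-miR-320a, hsa-miR-320b, hsa-miR-320c and hsa-miR-320d (written below without the species prefix), were taken by their listed names from the 851 human microRNA names, and no other miR-320 name is on the array. All 4 were detected on each of the 12 arrays and entered the test with 204 other names, so none depended on the filter on dim signals. The cells were SUM159, a human breast cancer cell line of the triple-negative type. They carried a stably integrated pLKO.1 lentiviral vector with either a Dicer shRNA or a scrambled control shRNA and were exposed for 24 h to 0.5 mM metformin, a biguanide used against type 2 diabetes, or to PBS as vehicle. The 4 groups of 3 biological replicates were Dicer shRNA with metformin, control shRNA with metformin, Dicer shRNA with vehicle and control shRNA with vehicle. The labels do not say whether each shRNA line is a pool or a single clone, and only 1 shRNA against Dicer was used.

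Most microRNAs are cut out of a primary transcript by the nuclear enzyme Drosha and then trimmed by the cytoplasmic enzyme Dicer. The miR-320a precursor is a known exception at the first step: transcription itself makes a short capped hairpin, which leaves the nucleus without Drosha cleavage and is cut by Dicer to give the mature strand from the 3′ arm. This route was described for miR-320a and for its mouse counterpart, and the other members are grouped with it by sequence. A Dicer shRNA therefore acts on a step that the family shares with canonical microRNAs.

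The mature sequences of miR-320b, miR-320c and miR-320d are shown because they differ only at the 3′ end, while the signals of miR-320c and miR-320d moved in opposite directions. They are the RefSeq sequences of build GRCh38.p14, written 5′ to 3′, and the capitals mark the seed, bases 2 to 8.
miR-320b: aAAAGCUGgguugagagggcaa
miR-320c: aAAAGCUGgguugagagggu
miR-320d: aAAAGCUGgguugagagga
These 3 members share the seed and their first 18 bases. Positions are counted from 1 at the 5′ end, and the first base named is that of the first member. miR-320b and miR-320c differ by C20U, and miR-320d differs from both miR-320b and miR-320c by G19A. The mature forms are 22 bases long for miR-320b, 20 bases for miR-320c and 19 bases for miR-320d. The sequence of miR-320a was not compared here.

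Each of these members has 2 loci. miR-320b lies on chromosome 1 at chr1:116671746-116671817 (plus strand), outside any annotated protein-coding gene, and at chr1:224257040-224257110 (minus strand), within the bounds of NVL. miR-320c lies on chromosome 18 at chr18:21683518-21683589 (plus strand), within ABHD3, and at chr18:24321675-24321746 (plus strand), within OSBPL1A. miR-320d lies at chr13:40727816-40727887 and chrX:140926160-140926231, both on the minus strand and outside protein-coding genes. Overlap with a gene was judged by coordinates only and the strand of the gene was not compared, so a locus within a gene may lie antisense to it. Whether a locus is exonic or intronic was not resolved here. The hairpins of miR-320c and miR-320d are shown, with the mature strand in capitals, because these members moved most and in opposite directions.
miR-320c-1: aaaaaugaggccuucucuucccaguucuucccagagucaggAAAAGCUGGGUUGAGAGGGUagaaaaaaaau
miR-320c-2: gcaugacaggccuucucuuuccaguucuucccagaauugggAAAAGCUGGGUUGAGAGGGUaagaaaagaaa
miR-320d-1: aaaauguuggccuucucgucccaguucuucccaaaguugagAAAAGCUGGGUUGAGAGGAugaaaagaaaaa
miR-320d-2: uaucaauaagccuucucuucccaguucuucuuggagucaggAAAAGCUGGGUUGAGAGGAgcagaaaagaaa
In all 4 hairpins the mature strand starts at base 42 of 72 and so lies on the 3′ arm. A reading of miR-320c or miR-320d cannot be assigned to one of its 2 loci. The probe sequences were not used here, so how far a probe of one member also binds another was not tested.

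Each array gave a total gene signal for a microRNA name, and 130 to 204 human names were detected per array. The withdrawn entry miR-923 took 77.7% to 84.3% of the human signal. Signals were scaled so that the arrays shared the 75th percentile of the 98 names detected on all 12 arrays. One slide carried both metformin groups and another both vehicle groups, so a slide effect and a metformin effect cannot be told apart. On each slide the Dicer shRNA arrays sat at later positions than the control shRNA arrays, and position and shRNA line likewise cannot be told apart. No probe reads Dicer itself, and the knockdown was not checked. Of 7 markers of a mesenchymal-like breast line, 6 were detected and miR-31 was not. The summed scaled signal of these markers was 280 to 393 in Dicer shRNA cells with metformin, 89.0 to 122 in control shRNA cells with metformin, 590 to 716 in Dicer shRNA cells with vehicle and 1864 to 2092 in control shRNA cells with vehicle. The marker miR-155 did not follow the sum. It averaged 21.5 ± 0.702, 42.5 ± 2.59, 23.4 ± 2.80 and 34.3 ± 2.37 in the same order of groups (SD, n = 3 each). Of 6 epithelial markers, miR-205 was detected on all 12 arrays, and miR-141, miR-200a, miR-200b, miR-200c and miR-429 on none. miR-205 averaged 92.1 ± 14.4, 124 ± 15.2, 125 ± 2.89 and 631 ± 12.4 in the same order of groups (SD, n = 3 each).

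miR-320c had the widest range of the family. Its scaled signal was 801, 764 and 1135 in Dicer shRNA cells with metformin and 3599, 3280 and 3216 in control shRNA cells with metformin. With vehicle it was 527, 481 and 405 in Dicer shRNA cells and 402, 359 and 310 in control shRNA cells. The order of the groups, from high to low, was control shRNA with metformin, Dicer shRNA with metformin, Dicer shRNA with vehicle and control shRNA with vehicle, and no 2 groups overlapped. The lower pair is nearly contiguous and did not pass the test below. Dim markers of other cell types also peaked in control shRNA cells with metformin. Of 6 blood markers, miR-223 and miR-486-5p were detected on all 3 arrays of that group (summed signal 15.2 to 20.4) and on no other array, while miR-142-3p, miR-142-5p, miR-144 and miR-451 were not detected. Of 4 muscle markers, miR-133a and miR-133b summed to 7.74 to 21.1 in Dicer shRNA cells with metformin, 24.9 to 29.9 in control shRNA cells with metformin, 0 to 6.52 in Dicer shRNA cells with vehicle and 0 to 4.41 in control shRNA cells with vehicle, and miR-1 and miR-206 were not detected. The 3 liver and brain markers were not detected. The part of these signals in the miR-320c values was not tested.

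miR-320d ran the other way. Its scaled signal was 51.4, 59.7 and 46.5 in Dicer shRNA cells with metformin and 24.6, 24.9 and 32.6 in control shRNA cells with metformin. With vehicle it was 70.9, 74.5 and 74.1 in Dicer shRNA cells and 123, 123 and 134 in control shRNA cells. The order of its groups was the exact reverse of that of miR-320c, again with no overlap between neighbours.

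miR-320a, the member for which the Drosha-independent route was described, differed in 1 group. It had 130, 131 and 135 in Dicer shRNA cells with metformin and 144, 127 and 142 in control shRNA cells with metformin. With vehicle it had 134, 131 and 107 in Dicer shRNA cells and 98.1, 93.7 and 69.3 in control shRNA cells. Control shRNA cells with vehicle lay below the other 3 groups, which overlapped with each other.

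miR-320b was the most even member under the scaling used here. It averaged 135 ± 14.7 in Dicer shRNA cells with metformin, 130 ± 4.95 in control shRNA cells with metformin, 150.5 ± 20.2 in Dicer shRNA cells with vehicle and 150.1 ± 15.3 in vehicle-exposed control shRNA cells (SD, n = 3 each). Its lowest array read 118 and its highest 165, and neighbouring groups overlapped throughout. The error stated in the files was 7.11% to 10.5% of the signal for the 4 members.

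**Figure D1:**
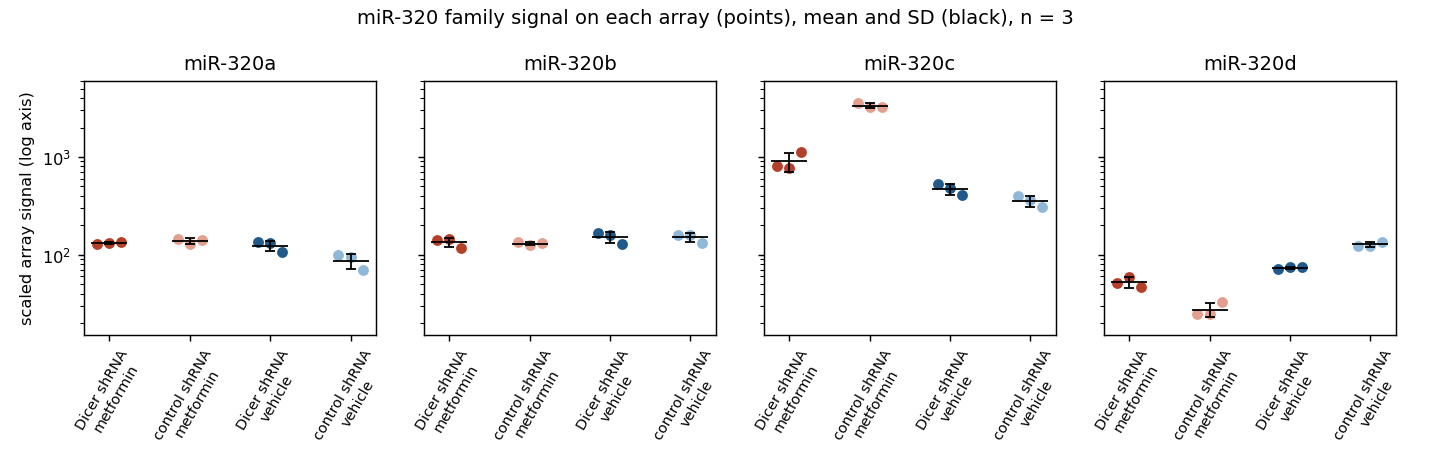
Scaled array signal of each miR-320 member (log axis) on the 3 arrays of each group, with the mean and SD in black. miR-320c is highest in control shRNA cells with metformin (3216 to 3599) where miR-320d is lowest (24.6 to 32.6), and miR-320b stays between 118 and 165. Each panel is a different probe set, so heights are compared within a panel.

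The first comparison asked how the Dicer shRNA changed the family under vehicle. Here and below, the value after ± of a change fitted by limma is the standard error of the fit, not an SD. miR-320d fell by 0.80 ± 0.13 on the log2 scale in Dicer shRNA cells (1.74-fold, adjusted p = 0.00037, limma), and its change lay between -1.67 and -0.55 under the other scalings. miR-320a rose by 0.52 ± 0.14 (1.43-fold, adjusted p = 0.0083), although its change was 0.109 and did not pass with median scaling, and was -0.355 when the arrays were scaled to viral names. miR-320c differed by 0.40 ± 0.17 and did not pass (adjusted p = 0.064, 95% interval 0.02 to 0.78). Its change was -0.012 with median scaling and -0.476 with scaling to viral names, and it passed when 16 was added to signals instead of flooring them (0.385, adjusted p = 0.049, limma), with quantile normalization (0.985) and when 1 array was left out: Dicer shRNA with metformin, replicate 3 (0.400), Dicer shRNA with vehicle, replicate 3 (0.504), or control shRNA with vehicle, replicate 1 (0.489). miR-320b did not differ beyond its spread (95% interval -0.29 to 0.29), but it passed in either direction with other scalings, at -0.412 (median), -0.876 (viral names) and 0.546 (quantile). Thus 1 member rose and 1 fell, where 59.6% of the 208 tested names passed, 21.6% higher and 38% lower. That split of 45 higher and 79 lower names was 32 and 90 with median scaling, 14 and 119 with scaling to viral names and 62 and 60 with quantile normalization. For 3 members the groups did not overlap, as for 63% of all names. The arrays measure bulk RNA and were scaled to one another, so all changes are relative to the other names. A large change in some cells and a smaller change in all cells cannot be told apart.

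The second comparison was the same knockdown under metformin. miR-320c fell by 1.92 ± 0.17 in Dicer shRNA cells, or 3.80-fold (adjusted p = 8.5e-06, limma), and 2 of 208 names fell by more. miR-320d rose by 0.94 ± 0.13, or 1.92-fold (adjusted p = 0.0002). miR-320a (-0.06 ± 0.14, 95% interval -0.38 to 0.25) and miR-320b (0.05 ± 0.13, 95% interval -0.24 to 0.34) did not pass. With median scaling they were -0.464 and -0.356, and with scaling to viral names 0.479 and 0.587, and both passed in each case. Of all names 38.9% passed this comparison, 13.9% higher and 25% lower, against 1 member each way, and the groups did not overlap for 53.8% of names and for 2 members. The split of 29 higher and 52 lower names was 23 and 106 with median scaling and 36 and 15 with scaling to viral names. Without replicate 3 of Dicer shRNA with metformin, the highest array of miR-320c in its group, the change of miR-320c was -2.10. Under the other scalings its change lay between -2.33 and -1.37, and that of miR-320d between 0.54 and 1.48.

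The third comparison set metformin against vehicle in control shRNA cells. miR-320c rose by 3.24 ± 0.17, or 9.47-fold (adjusted p = 2.9e-08, limma), and 2 of 208 names rose by more. miR-320d fell by 2.23 ± 0.13, or 4.68-fold (adjusted p = 6.1e-08). miR-320a rose by 0.68 ± 0.14 (adjusted p = 0.0011), but its change was 0.305 and did not pass with no scaling, and was -0.979 after scaling to viral names. miR-320b differed by -0.21 ± 0.13 and did not pass (adjusted p = 0.16, limma), but it passed at -0.576 with no scaling, -0.334 with median scaling, -1.86 with viral scaling and, above 0, at 0.359 with quantile normalization. Under the other scalings miR-320c changed by at least 1.59, the value with scaling to viral names, and miR-320d by -3.88 to -1.60. So 2 members rose and 1 fell, where 88% of all names passed, 47.6% higher and 40.4% lower, and the groups of those 3 did not overlap, as for 91.8% of names. The split of 99 higher and 84 lower names was 36 and 124 with scaling to viral names.

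In Dicer shRNA cells the metformin and vehicle arrays lay closer together. miR-320c rose by 0.92 ± 0.17 (adjusted p = 0.0026, limma), or by 0.46 with quantile normalization, and 5 of 208 names rose by more. miR-320d fell by 0.49 ± 0.13 (adjusted p = 0.023), but with quantile normalization its change was -0.183 and did not pass, and with the values of the deposited series matrix it was 0.147. The miR-320d call was lost when 1 array was left out: Dicer shRNA with metformin, replicate 1 or 3 (adjusted p 0.063 and 0.096, limma), or Dicer shRNA with vehicle, replicate 2 or 3 (adjusted p 0.072 and 0.064). miR-320a (0.09 ± 0.14) and miR-320b (-0.16 ± 0.13) did not pass, with 95% intervals of -0.22 to 0.41 and -0.45 to 0.13, and miR-320a passed at 0.395 with quantile normalization and 0.444 with the series matrix. In this comparison 24.5% of names passed, 6.25% higher and 18.3% lower, against 1 member each way, and the groups did not overlap for 37% of names and for 2 members. The split of 13 higher and 38 lower names was 6 and 44 with no scaling, 7 and 42 with scaling to viral names, and turned to 33 and 27 with quantile normalization and 43 and 19 with the series matrix.

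**Figure D2:**
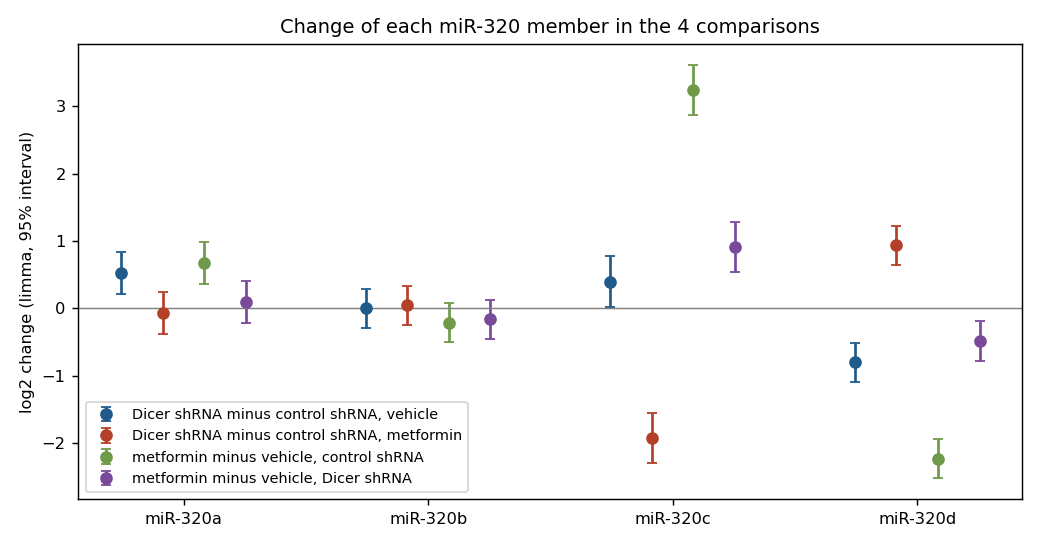
Log2 change of each member in the 4 comparisons, with the 95% interval from the limma fit. miR-320c and miR-320d lie on opposite sides of 0 in each comparison (3.24 and -2.23 for metformin in control shRNA cells), while the intervals of miR-320b include 0 under the scaling used here.

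The 4 comparisons share groups, so the difference between the knockdown changes was tested in the same fit over all 12 arrays. The knockdown change under metformin minus that under vehicle was -2.32 ± 0.24 for miR-320c (adjusted p = 1.4e-05, limma) and 1.74 ± 0.18 for miR-320d (adjusted p = 1.7e-05). It was -0.58 ± 0.20 for miR-320a (adjusted p = 0.023), but 0.834 after scaling to viral names, and the call was lost with no scaling (-0.354), with the series matrix (-0.415) and without replicate 2 of Dicer shRNA with vehicle (adjusted p = 0.051). For miR-320b it was 0.05 ± 0.18 and did not pass (95% interval -0.36 to 0.46), but it passed at 1.46 after scaling to viral names. This difference passed for 3 members, 1 above 0 and 2 below, and for 76.4% of all names, 37% above 0 and 39.4% below. The split of 77 names above and 82 below was 115 and 20 with scaling to viral names. Of the 98 names detected on all 12 arrays, 21 passed above 0 and 49 below. After scaling to viral names the difference was -0.91 for miR-320c and 3.16 for miR-320d, and both passed. miR-320d thus was lower in Dicer shRNA cells under vehicle and higher under metformin.

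To compare members without the array scaling, the difference of their log2 signals was taken within each array and its change between groups was tested by exact permutation. Only the change of such a difference is read, since levels of different probes are not comparable. All 6 pairs were tested for 3 questions, with two-sided p-values adjusted over the 6 pairs. The exact permutation test of 3 arrays against 3 cannot go below p = 0.1, and that over both slides or lines cannot go below 0.005. For the knockdown, shRNA labels were exchanged within each treatment, so these p-values test for no knockdown change under either treatment and not for equal changes under both. Where the changes under metformin and vehicle have opposite signs, as for 5 of the 6 pairs, the p of their average lies near 0.1 or above by construction. Where they have the same sign, as for miR-320c minus miR-320a, so does the p of their gap. Those values are given without reading a result from the p. miR-320c was contrasted first with miR-320a and miR-320b.

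miR-320c moved apart from both of these members on the metformin arrays. The difference of miR-320c minus miR-320a was 2.75 ± 0.28 in Dicer shRNA cells with metformin, 4.61 ± 0.10 in control shRNA cells with metformin, 1.92 ± 0.05 in Dicer shRNA cells with vehicle and 2.05 ± 0.11 in vehicle-exposed control shRNA cells (log2, SD, n = 3 each). Metformin minus vehicle, averaged over both lines, was 1.70 (exact permutation p = 0.005, the smallest possible, adjusted p = 0.005), and the metformin arrays lay above the vehicle arrays within each line. Averaged over both treatments, the knockdown change of this difference was -0.99 (exact permutation p = 0.01, adjusted p = 0.06). It was -1.86 under metformin and -0.12 under vehicle, and the gap between these changes was -1.74. Under vehicle the 2 lines overlapped in this difference. Without replicate 2 of control shRNA with vehicle the averaged knockdown change was -1.02 and passed (exact permutation, adjusted p = 0.03).

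Against miR-320b the picture differed in the knockdown under vehicle. The difference of miR-320c minus miR-320b was 2.72 ± 0.47 in Dicer shRNA cells with metformin, 4.70 ± 0.07 in control shRNA cells with metformin, 1.65 ± 0.04 in Dicer shRNA cells with vehicle and 1.25 ± 0.07 in control shRNA cells with vehicle. Metformin minus vehicle was 2.26 (exact permutation p = 0.005, adjusted p = 0.005). The knockdown changed the difference by -1.97 under metformin and by 0.40 under vehicle, a gap of -2.37 (exact permutation p = 0.005, adjusted p = 0.0075). The averaged knockdown change was -0.79.

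The 2 members with opposite changes gave the widest separation. miR-320d minus miR-320c was -4.08 ± 0.48 in Dicer shRNA cells with metformin, -6.95 ± 0.30 in control shRNA cells with metformin, -2.68 ± 0.22 in Dicer shRNA cells with vehicle and -1.48 ± 0.25 in control shRNA cells with vehicle. Metformin minus vehicle was -3.44 (exact permutation p = 0.005, adjusted p = 0.005) and the gap between the knockdown changes was 4.07 (exact permutation p = 0.005, adjusted p = 0.0075). Also miR-320a and miR-320b, the 2 members with the smaller changes, moved apart, with a metformin minus vehicle value of -0.57 for miR-320b minus miR-320a (exact permutation p = 0.005, adjusted p = 0.005). For metformin, all 6 pairs passed, with changes between -3.44 and 2.26. The share of passing pairs among other names was not computed, so this count is not read as a trait of the family. Taken singly, 91.8% of the 208 names did not overlap between metformin and vehicle in control shRNA cells, and 37% in Dicer shRNA cells. The equality of the knockdown changes under metformin and vehicle was not tested for pairs.

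**Figure D3:**
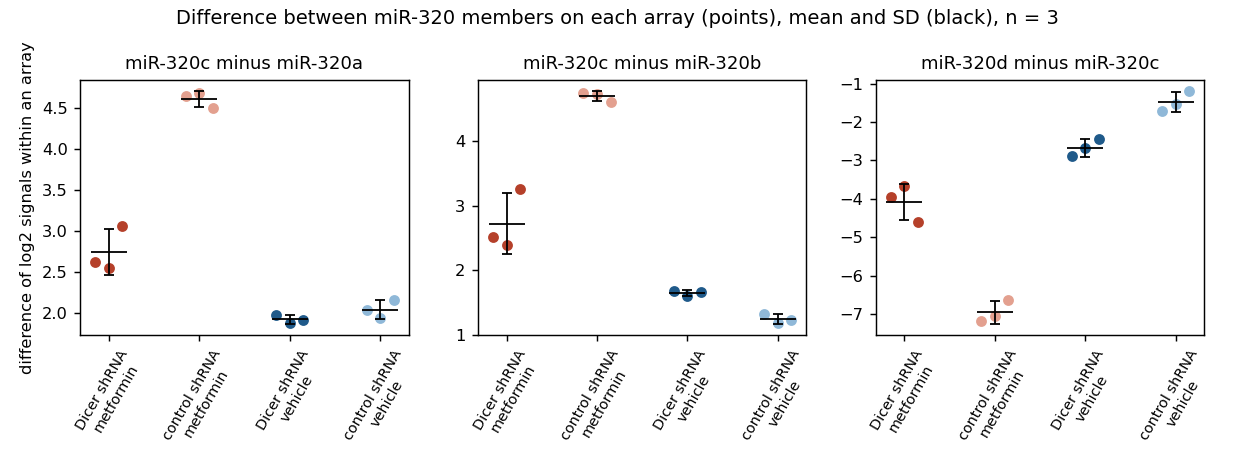
Difference of log2 signals between 2 members on the same array, for 3 pairs, with the mean and SD of 3 arrays in black. miR-320c minus miR-320a and miR-320c minus miR-320b are highest in control shRNA cells with metformin (4.61 and 4.70), and miR-320d minus miR-320c is lowest there (-6.95).

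A list of 19 other names was drawn up as Drosha-independent. It held miR-484, which like miR-320a comes from a capped precursor, and mirtrons or mirtron candidates with their partner strands. Mirtrons are spliced out as short introns. Whether each candidate is made in this way, or bypasses Drosha at all, was not resolved here. Of the 19, 15 were tested. Under vehicle 6 rose and none fell in Dicer shRNA cells (median 0.41), against a median of 0.00 over all 208 names and of 0.33 over the 98 names detected on all 12 arrays, which hold 11 of the 15. Of all 208 names 21.6% rose, and of the 98 names 40 rose and 23 fell. Within the list, 3 rose with no scaling and 2 with median scaling. miR-1226* (1.25 ± 0.29) and miR-1224-5p (1.22 ± 0.18) rose most, and miR-1237 (0.75 ± 0.29) and miR-1228 (0.67 ± 0.16) followed. Under metformin none rose and 4 fell (median -0.46, against -0.24 over the 208 and -0.33 over the 98 names), though 13 fell with median scaling, and 1 rose and none fell with scaling to viral names. Of all 208 names 25% fell, and of the 98 names 24 did. The 4 of the list were led by miR-1229 (-1.53 ± 0.36) and miR-1224-3p (-1.19 ± 0.26, with 1 of 3 Dicer shRNA arrays at the floor), with miR-1228 (-0.51 ± 0.16) and miR-1238 (-0.46 ± 0.16).

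The same list in control shRNA cells had 12 higher and none lower with metformin (median 1.21, against 0.52 over the 208 and 0.93 over the 98 names). Of all 208 names 47.6% were higher, and of the 98 names 61 were. With scaling to viral names 1 of the list was higher and 5 lower. The largest were miR-1224-5p (2.07 ± 0.18), miR-1226* (1.99 ± 0.29) and miR-1237 (1.85 ± 0.29). miR-1229 was at the floor of 3.01 on all 3 vehicle arrays, against a mean of 10.9 with metformin, so its fitted change of 1.86 is set by the floor. In Dicer shRNA cells 3 were higher and none lower with metformin (median 0.39, against -0.00 over the 208 and 0.17 over the 98 names), namely miR-1228 (0.60 ± 0.16), miR-1225-5p (0.50 ± 0.14) and miR-1234 (0.42 ± 0.12). Of all 208 names 6.25% were higher, and of the 98 names 11 were. Within the list, 1 was higher with no scaling, median scaling or scaling to viral names. With quantile normalization or the series matrix 5 were. For the gap between the knockdown changes 10 of the 15 passed, all lower (median -0.87, against -0.53 over the 208 and -0.68 over the 98 names), with miR-1224-5p at -1.68 ± 0.26 and miR-1226* at -1.57 ± 0.42. Of all 208 names 39.4% were lower, and of the 98 names 49 were. The values of miR-1229 (-2.09) and miR-1224-3p (-1.35) are limited by the floor. With the scaling used here, miR-320c had the sign of this list's median in each comparison and miR-320d had the opposite sign. Scaled to viral names, the list's median was -0.22, 0.03, -0.25, 0.15 and 0.22 for the knockdown under vehicle, the knockdown under metformin, metformin in control shRNA cells, metformin in Dicer shRNA cells and the gap, so its direction turned in all but the fourth, and 7 members fell in the knockdown under vehicle. miR-484 did not pass in any comparison. It was detected on 1 of 3 arrays of Dicer shRNA with metformin, 3 of control shRNA with metformin, 2 of Dicer shRNA with vehicle and 3 of control shRNA with vehicle. The mirtron miR-877 did not pass either and lay near the detection limit.

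Canonical microRNAs, which need both enzymes, were taken as 20 names, of which 18 were tested. Of these, 8 entered the test only through control shRNA cells with vehicle, where they are high, and 8 were not detected on any metformin array, so counts over the list are partly set by the filter and the floor. The 3 detected on all 12 arrays, miR-21, miR-24 and miR-222, had a median change of -1.95 for the knockdown under vehicle, 2.07 for the knockdown under metformin, -5.11 for metformin in control shRNA cells and -1.10 for metformin in Dicer shRNA cells. Over the 18, in Dicer shRNA cells 17 fell under vehicle (median -2.42, against 0.00 over all names, of which 38% fell) and 7 rose under metformin (median 0.16, against -0.24, of which 13.9% rose). With metformin 17 fell in control shRNA cells (median -4.89, against 0.52, of which 40.4% fell) and 10 in Dicer shRNA cells (median -1.10, against -0.00, of which 18.3% fell). miR-21, abundant in many tumours, had 78.2 ± 20.1 in Dicer shRNA cells with metformin, 18.6 ± 7.49 in control shRNA cells with metformin, 171 ± 28.2 in Dicer shRNA cells with vehicle and 961 ± 95.5 in vehicle-exposed control shRNA cells (SD, n = 3 each). That is the group order of miR-320d. The signs of the canonical medians were the same under each scaling. let-7b, of the let-7 tumour suppressor family, changed by -1.76 ± 0.45 under vehicle and by 2.63 ± 0.45 under metformin in Dicer shRNA cells, and passed in both, with 1 of 3 control shRNA arrays with metformin at the floor. miR-451, which needs Drosha but not Dicer, was not detected on any array.

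Viral names and the hur control features varied along with miR-320a, miR-320c and miR-320d, in the same or the opposite direction. Over the 12 arrays, which form 4 groups and share the scaling, Pearson's r with the mean of the viral names was 0.92 for miR-320a, 0.88 for miR-320c and -0.94 for miR-320d, and r with the mean of the hur features was -0.71, -0.99 and 0.98. For miR-320b, r was -0.39 with the viral names and 0.58 with the hur features. The mean log2 signal of the 4 hur features detected on all arrays, which are labelled as controls in the files, was 11.68 to 12.22 in Dicer shRNA cells with metformin, 9.99 to 10.45 in control shRNA cells with metformin, 12.83 to 13.04 in Dicer shRNA cells with vehicle and 13.64 to 13.69 in control shRNA cells with vehicle. This is the group order of miR-320d and the reverse of that of miR-320c. Their median change was -0.81 for the knockdown under vehicle, 1.95 for the knockdown under metformin and -3.84 for metformin in control shRNA cells, and all 4 were lower with metformin in Dicer shRNA cells. The 10 viral microRNA names detected on all arrays had median changes of 0.87, -0.49, 1.38 and 0.34 in the same 4 comparisons, the signs of miR-320c. The withdrawn entry miR-923 had these signs too, at 0.53, -0.34, 0.90 and 0.04, and the last did not pass. Within Dicer shRNA cells with metformin, the array with the highest miR-320c signal also had the lowest hur mean. The part of these signals in the results was not tested. Scaled to the viral names, miR-320c still changed by -1.39 for the knockdown under metformin and by 1.59 for metformin in control shRNA cells, while the median over all 208 names was 0.00 and -0.99, against -0.24 and 0.52 with the scaling used here.

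**Figure D4:**
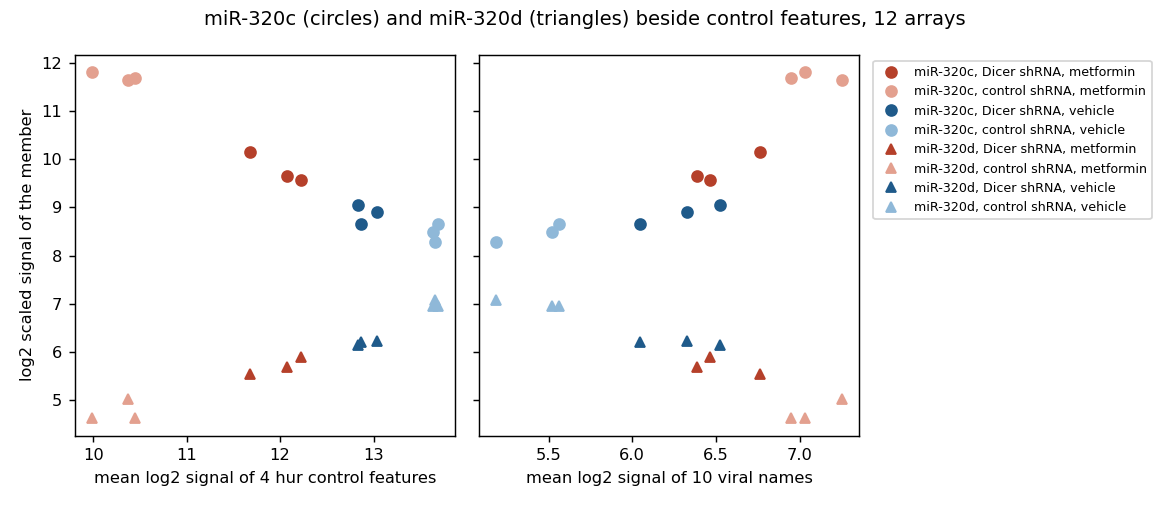
Log2 scaled signal of miR-320c (circles) and miR-320d (triangles) on the 12 arrays against the mean log2 signal of 4 hur control features (left) and of 10 viral names (right). On the hur axis the 4 groups do not overlap, with control shRNA with metformin at the low end (9.99 to 10.45) and control shRNA with vehicle at the high end (13.64 to 13.69). On the viral axis Dicer shRNA with metformin (6.39 to 6.76) and Dicer shRNA with vehicle (6.05 to 6.52) overlap.

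The names most like each member were sought among the other 94 names detected on all 12 arrays, by Pearson's r of log2 scaled signal over the 12 arrays. The arrays share their scaling and fall into 4 groups, so these values only describe likeness. miR-320c was most like miR-630 (r 0.95), miR-1249 (r 0.95) and miR-939 (r 0.94), and miR-630 averaged 9.39, 10.63, 8.98 and 7.93 on the log2 scale in Dicer shRNA with metformin, control shRNA with metformin, Dicer shRNA with vehicle and control shRNA with vehicle. miR-320d was most like miR-92a (r 0.99), miR-23a (r 0.99) and miR-24 (r 0.98), and miR-92a averaged 7.22, 6.39, 7.85 and 8.51 in the same groups. miR-320a was most like miR-1226* (r 0.98), miR-601 (r 0.98) and miR-188-5p (r 0.97). miR-320b had no close match, its highest being miR-99b (r 0.66), miR-181a (r 0.65) and miR-151-3p (r 0.64). No name was among the 3 nearest of more than 1 member.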

How the data were processed

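Total RNA of each sample was read in Cy3 on its own Agilent microRNA array, per the labels. Their labelling protocol, however, describes cRNA made with a linear amplification kit, a method for mRNA, so how the microRNAs were labelled is not settled. The deposited array files list, per the file headers, a linear intensity for every name (the total gene signal), its stated error and whether the name was detected. The submitters' processing notes name Agilent Feature Extraction 9.1, and no source used here gives its background settings. An intensity of 0.1 stands for a name not detected. The authors' series matrix, deposited as log2 values of 221 names, has column medians of 3.19 to 4.06. It runs in the same direction as log2 of the array signal (r 0.997 to 0.999 across names), while its centring and normalization remain unknown. Titles gave the groups, since for both metformin groups the source names contradict titles and characteristics.

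Scaling used, for each array, the 75th percentile of the 98 human names that all 12 arrays detected (factors 0.836 to 1.15). A floor of 3.01, taken from the dimmest detected signals (the 5th percentile per array, median over arrays), replaced lower values before log2 was taken. limma 3.58.1 in R 4.3.3 (lmFit, eBayes) estimated 4 group means for 208 names, those that every array of some group detected. The residual degrees of freedom were 8 and the prior 1.85. P-values were adjusted by Benjamini-Hochberg over the 208 names, and a name passed under 0.05. Member pairs were compared by exact permutation within slide or line (400 arrangements). Alternatives covered scaling, floor, filter, replicate block, the series matrix and each array left out. Python 3.11.15, numpy 2.4.6, pandas 2.3.3 and matplotlib 3.10.9 were used, and both tests were checked on simulated data. RefSeq sequences of GRCh38.p14 were used for 3 of the 4 members, and miR-320a was left out before matching. The text names the 4 members, up to 4 passing names of the Drosha-independent list per comparison, the 3 names most like each member and the comparators miR-484, miR-877, miR-451, miR-21, let-7b and miR-923. Members and lists were chosen with earlier results of these data known. With 3 arrays a group, precision is limited by their number.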

Additional observations from a re-analysis of the deposited data

Results flagged for a closer look

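The knockdown change differed between metformin and vehicle for 3 members, and for 76.4% of all 208 names. The change under metformin minus that under vehicle was -0.58 for miR-320a, -2.32 for miR-320c and 1.74 for miR-320d (limma, adjusted p 0.023, 1.4e-05 and 1.7e-05). The miR-320a call was lost with no scaling (-0.354), with the series matrix (-0.415) and without replicate 2 of Dicer shRNA with vehicle (-0.540). With scaling to viral names the miR-320a value turned to 0.834. For miR-320d and miR-320c the sign of the knockdown change itself differed, although the miR-320c change under vehicle did not pass. Within arrays, the same difference between the knockdown changes was 0.63 for miR-320b minus miR-320a, 2.32 for miR-320d minus miR-320a, -2.37 for miR-320c minus miR-320b, 1.69 for miR-320d minus miR-320b and 4.07 for miR-320d minus miR-320c (exact permutation, adjusted p 0.024 for the first and 0.0075 for the other 4). Treatment coincides with slide in all of these. The permutation p tests for no knockdown change under either treatment, so it does not by itself test whether the changes differ.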

How the results depend on the processing

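The calls of miR-320c and miR-320d in the knockdown under metformin, in metformin against vehicle in control shRNA cells and in the gap between the knockdown changes held under each scaling, floor, filter, replicate block and left-out array, as did those of miR-320d in the knockdown under vehicle. No scaling and the 75th percentile over all human names gave the same values, since that percentile is the undetected value. Changes below are log2, and where a direction turned, the cause was not tested. For miR-320a the knockdown under vehicle was -0.355 with scaling to viral names. Its knockdown under metformin was 0.015 with no scaling, 0.479 with viral scaling and 0.006 with the series matrix. Its metformin change was -0.979 with viral scaling in control shRNA cells. In Dicer shRNA cells it was -0.049 with no scaling, -0.026 with median scaling, -0.145 with viral scaling and -0.006 to 0.154 with 1 array left out, and its gap was 0.834 with viral scaling. For miR-320b the knockdown under vehicle was 0.000 with an offset of 16, 0.546 with quantile normalization and -0.087 to 0.115 with 1 array left out. Its knockdown under metformin was -0.356 with median scaling and -0.014 to 0.140 with 1 array left out. Its metformin change was 0.359 in control shRNA cells with quantile normalization and 0.114 in Dicer shRNA cells with the series matrix, and its gap was -0.467 with quantile normalization and -0.067 to 0.140 with 1 array left out. miR-320c under vehicle was -0.012 (median) and -0.476 (viral), and miR-320d with metformin in Dicer shRNA cells was 0.147 (series matrix). The averaged knockdown change of miR-320d minus miR-320b was -0.033 with the offset, -0.153 with quantile normalization and -0.012 to 0.114 with 1 array left out, and that of miR-320c minus miR-320a was -1.073 to -0.942 with 1 array left out. The metformin change of miR-320d minus miR-320b was -0.945 with the series matrix and did not pass (exact permutation, adjusted p = 0.065). With only the 98 names detected on all arrays, and so fewer names tested, 64 passed for the knockdown under vehicle, 44 for the knockdown under metformin, 86 and 28 for metformin in control and Dicer shRNA cells and 72 for the gap. The knockdown under metformin had 129 passing names with median scaling (23 higher, 106 lower) and 51 with viral scaling (36 higher, 15 lower), against 81 (29 higher, 52 lower). With 1 array left out the counts were 118 to 130, 62 to 104, 174 to 188, 32 to 71 and 145 to 164 in that order of comparisons, with 32 when the third array of Dicer shRNA with metformin was dropped. The labels give same-numbered replicates a shared number and do not say whether they were paired. Their deviations correlated between -0.24 and 0.69, above 0.1 for 7 of 12 pairs, so pairing was not resolved. With the replicate block 124, 83, 182, 47 and 159 names passed, and the permutation test of the gap of miR-320b minus miR-320a, 0.629, did not pass (exact permutation, adjusted p = 0.075).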
